A study of Mus musculus with 96 samples.

Results

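The 9 genes described here were grouped as feedback and growth brake genes of the integrated stress response, that is, subunits of the eIF2 phosphatase and genes linked to ATF4: Ppp1r15a, Ppp1r15b, Trib3, Eif4ebp1, Sesn2, Ddit4, Chac1, Stc2 and Vldlr. They were chosen by gene name from 54150 rows of an RNA-seq count table of C2C12 cells, a mouse myoblast line that stops dividing and fuses into myotubes in low serum. The rule reads gene names only, but the members were chosen with earlier results of these data known. All 9 genes passed the filter on low counts in each of the 6 model fits, and they were read in all 96 libraries, which form 35 groups. Of these groups, 26 held 3 libraries and 9 held 2.

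All groups were C2C12 cells kept without pyruvate, the proliferating myoblasts in medium with 10% fetal bovine serum. The proliferating myoblasts carried a doxycycline-inducible protein, switched on with 300 ng/ml doxycycline 24 hr ahead of treatment: luciferase in the cells called control here, LbNOX (a bacterial water-forming NADH oxidase, placed in the cytosol), mitoLbNOX (the same enzyme sent to mitochondria) or NDI1 (a yeast NADH dehydrogenase that can stand in for complex I without pumping protons). Control and LbNOX myoblasts received DMSO, piericidin (a complex I inhibitor), antimycin (complex III) or oligomycin (ATP synthase) for 10 hr, or chloramphenicol, which blocks mitochondrial protein synthesis, for 48 hr with its own DMSO groups. Chloramphenicol was given with uridine in the medium, which the shorter treatments lacked. The mitoLbNOX myoblasts received DMSO, piericidin or antimycin and the NDI1 myoblasts DMSO or piericidin. Untransduced post-mitotic cells, taken 24 hr after the switch to 2% horse serum, received DMSO, piericidin or oligomycin. Untransduced myotubes, 4 days after that switch, received DMSO, each of the 3 inhibitors, the uncoupler BAM15, hypoxia (with DMSO or oligomycin), oligomycin with piericidin, or oligomycin with BAM15. Hypoxia was 5% oxygen, begun the night before treatment and kept up during it. A further set of myotubes expressed GFP, or LbNOX with eGFP, from adenovirus given 48 hr after the switch and received DMSO, piericidin or oligomycin. In all groups other than chloramphenicol and its DMSO groups, treatment lasted 10 hr. Labels do not say whether replicates came from separate cultures, so the p-values measure the spread between these libraries, which may be technical.

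In the integrated stress response, kinases phosphorylate the translation factor eIF2, general translation slows, and the transcription factor ATF4 is made from its protected mRNA. Part of what ATF4 and its partners switch on limits the response itself or holds growth back. Ppp1r15a (also called GADD34) and Ppp1r15b (CReP) are the regulatory subunits that direct protein phosphatase 1 to eIF2, the first stress-inducible and the second present in unstressed cells. Trib3 is a pseudokinase that binds AKT and ATF4. Sesn2 and Ddit4 hold back the growth kinase mTORC1, through GATOR2 and the TSC complex respectively, and Eif4ebp1 encodes the mTORC1 substrate 4E-BP1, which binds the cap-binding factor eIF4E. Chac1 breaks down glutathione, Stc2 is a secreted glycoprotein that inhibits a protease acting on insulin-like growth factor binding proteins, and Vldlr is a receptor for lipoproteins and reelin.

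The genes lie on 8 chromosomes of the GRCm38 assembly (GENCODE vM21 annotation). Ppp1r15a is at chr7:45522916-45526268 (minus strand), Ppp1r15b at chr1:133131143-133139783 (plus strand), Trib3 at chr2:152337422-152344032 (minus strand), Eif4ebp1 at chr8:27260329-27276674 (plus strand) and Sesn2 at chr4:132492032-132510501 (minus strand). Ddit4 is at chr10:59949669-59951834 (minus strand), Chac1 at chr2:119351229-119354381 (plus strand), Stc2 at chr11:31357307-31370074 (minus strand) and Vldlr at chr19:27216484-27254231 (plus strand). RefSeq promoter windows of GRCm38.p6, each running from 250 bases before to 50 after a transcription start, matched 7 of the 9 genes with 8 windows, 2 of them for Vldlr. Ppp1r15b and Eif4ebp1 had none. The windows were searched on both strands for TGATGNAA, the C/EBP-ATF element to which ATF4 binds with C/EBP partners, which 3.97% of all 32851 windows of this length held. They were also searched for the cAMP response element TGACGTCA, held by 1.79%, and for ACGTG, the core of the hypoxia response element, held by 19.6%.

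The stretches below are shown because they hold the only matches to TGATGNAA or TGACGTCA in the windows of these genes. They are printed 5′ to 3′ on the strand of the gene, with the match in capitals.
Ppp1r15a: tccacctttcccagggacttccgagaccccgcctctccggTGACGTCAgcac
Trib3: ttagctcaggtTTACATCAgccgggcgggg
Chac1: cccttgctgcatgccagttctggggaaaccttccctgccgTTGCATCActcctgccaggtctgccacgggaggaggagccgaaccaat
Vldlr: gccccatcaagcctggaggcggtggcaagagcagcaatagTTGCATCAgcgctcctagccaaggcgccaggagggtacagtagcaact
The Ppp1r15a stretch (chr7:45526269-45526320, minus strand) holds TGACGTCA at position -12, counting the transcription start as 0, and lies outside the annotated gene. The Trib3 stretch (chr2:152344028-152344057, minus strand) holds TGATGNAA in reverse at position 14 after the RefSeq start, with the match outside the GENCODE gene. In Chac1 (chr2:119351009-119351096, plus strand) the reverse match is at -193, outside the gene. In Vldlr (chr19:27216780-27216867, plus strand) it is at -200 from the second start, within an exon of a GENCODE transcript that begins further upstream. ACGTG occurred in the Ppp1r15a window at -201 and -160 and in the Ddit4 window at -187, and it overlapped none of the other matches. Sesn2, Stc2 and the first Vldlr window held none of these letters, which says nothing of which factors act there.

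Library totals ranged from 6458295 to 15366745 estimated counts (median 10336588.5), and a single row, CT010467.1, took 24.19% to 31.1% of them. Levels are given below as CPM (counts relative to library size) after TMM scaling over all 96 libraries, in replicate order, and changes as log2 fold changes ± SE from edgeR's quasi-likelihood test with Benjamini-Hochberg adjustment over all genes of the fit. A gene was called at an adjusted p below 0.05, and beside each count of called genes stands the share of all genes tested that were called in that direction. The summed level of 7 myotube markers was 14.6 to 95.4 CPM in myoblasts, 10610 to 11990 in post-mitotic cells and 12140 to 15880 in myotubes. The post-mitotic cells thus already carried most of the myotube markers' level. The 5 proliferation markers summed to 534.6 to 1243 CPM in myoblasts, 175.8 to 229.5 in post-mitotic cells and 23.3 to 152.5 in myotubes. Of the defining markers of other cell types, the adipocyte genes summed to at most 1.21 CPM in any library, the endothelial genes to at most 3.53, the macrophage genes to at most 6.63 and the fibroblast-like genes to at most 9.17.

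In control myoblasts each inhibitor raised all 9 genes, by a median log2 fold change of 3.38 under piericidin, 2.80 under antimycin and 2.50 under oligomycin. The genes called higher made up 30.9%, 32.1% and 24.5% of the 11981 genes tested, and the medians over all genes were -0.0037, -0.0048 and -0.015. The 3 comparisons share the same DMSO libraries. In such bulk samples a smaller share of cells with a transcript and less of it per cell cannot be told apart. Ppp1r15a, the stress-inducible phosphatase subunit, stood at 14.8, 19.1 and 18.0 CPM under DMSO. It reached 495, 487 and 490.1 CPM under piericidin, 473, 450.4 and 457 under antimycin and 252, 227 and 251 under oligomycin, with no overlap between any treated group and DMSO. The log2 fold changes were 4.86 ± 0.10, 4.77 ± 0.10 and 3.82 ± 0.098 (edgeR adjusted p = 1.7e-26, 1.6e-26 and 5.3e-24). Ppp1r15b, its counterpart of unstressed cells, rose by a smaller log2 fold change. Its levels were 99.7, 112 and 105 CPM under DMSO, 219, 229 and 210.1 under piericidin, 201, 210.0 and 201 under antimycin and 187, 172 and 155 under oligomycin. The log2 fold changes of Ppp1r15b were 1.09 ± 0.065, 0.99 ± 0.065 and 0.71 ± 0.065.

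Trib3, which binds AKT, rose most of the 9 under each inhibitor. From 9.84, 7.42 and 7.79 CPM under DMSO it went to 298, 334 and 302 under piericidin, 464, 457 and 460.1 under antimycin and 249.9, 242 and 251 under oligomycin. Its log2 fold changes were 5.26 ± 0.092, 5.83 ± 0.094 and 4.91 ± 0.092 (edgeR adjusted p at most 2.0e-27). The libraries of each treatment were tightly grouped and the 3 treatments did not overlap. Among the brakes on mTORC1 and cap-dependent translation, Eif4ebp1 rose by 1.85 ± 0.034, 2.01 ± 0.034 and 1.89 ± 0.034 on the log2 scale. Its libraries were at 145, 140.0 and 144 CPM under DMSO and between 501 and 565 under the inhibitors. Sesn2, the leucine-binding inhibitor of GATOR2, went from 20.1, 16.5 and 17.1 CPM to 95.8, 106 and 92.5 under piericidin, 89.4, 97.5 and 105 under antimycin and 97.3, 103 and 94.5 under oligomycin. These Sesn2 groups overlapped each other and all lay above DMSO, with log2 fold changes of 2.49 ± 0.098, 2.49 ± 0.098 and 2.47 ± 0.097.

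Ddit4, the activator of the TSC complex, was expressed at a low level and varied more between libraries. Its counts were 13, 45 and 25 under DMSO, 130, 76 and 143 under piericidin, 165, 102 and 148 under antimycin and 106, 63 and 93 under oligomycin, or 1.21, 3.18 and 2.32 CPM under DMSO against 16.3, 11.6 and 17.1 under antimycin. Treated and DMSO groups did not overlap in CPM, and the log2 fold changes were 2.51 ± 0.35, 2.75 ± 0.34 and 1.91 ± 0.35 (edgeR adjusted p = 2.6e-07, 4.4e-08 and 3.3e-05). Chac1, the glutathione-degrading enzyme, rose from 21.3, 13.4 and 17.0 CPM to 231, 214 and 233 under piericidin, 415, 396 and 397 under antimycin and 161, 141 and 144 under oligomycin. Its log2 fold changes were 3.76 ± 0.11, 4.60 ± 0.11 and 3.13 ± 0.11. Stc2, the secreted glycoprotein, was near the low end of detection under DMSO, with 21, 36 and 34 counts, and reached 229, 203 and 279 under piericidin, 251, 200 and 226 under antimycin and 152, 153 and 140 under oligomycin (log2 fold changes 3.38 ± 0.23, 3.30 ± 0.23 and 2.50 ± 0.23). Vldlr, the lipoprotein receptor, was instead highest under oligomycin and lowest of the 3 under antimycin. Its counts were 19, 32 and 13 under DMSO, 226, 257 and 228 under piericidin, 134, 112 and 89 under antimycin and 456, 451 and 321 under oligomycin, with log2 fold changes of 3.90 ± 0.18, 2.80 ± 0.19 and 4.46 ± 0.18.

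**Figure D1:**
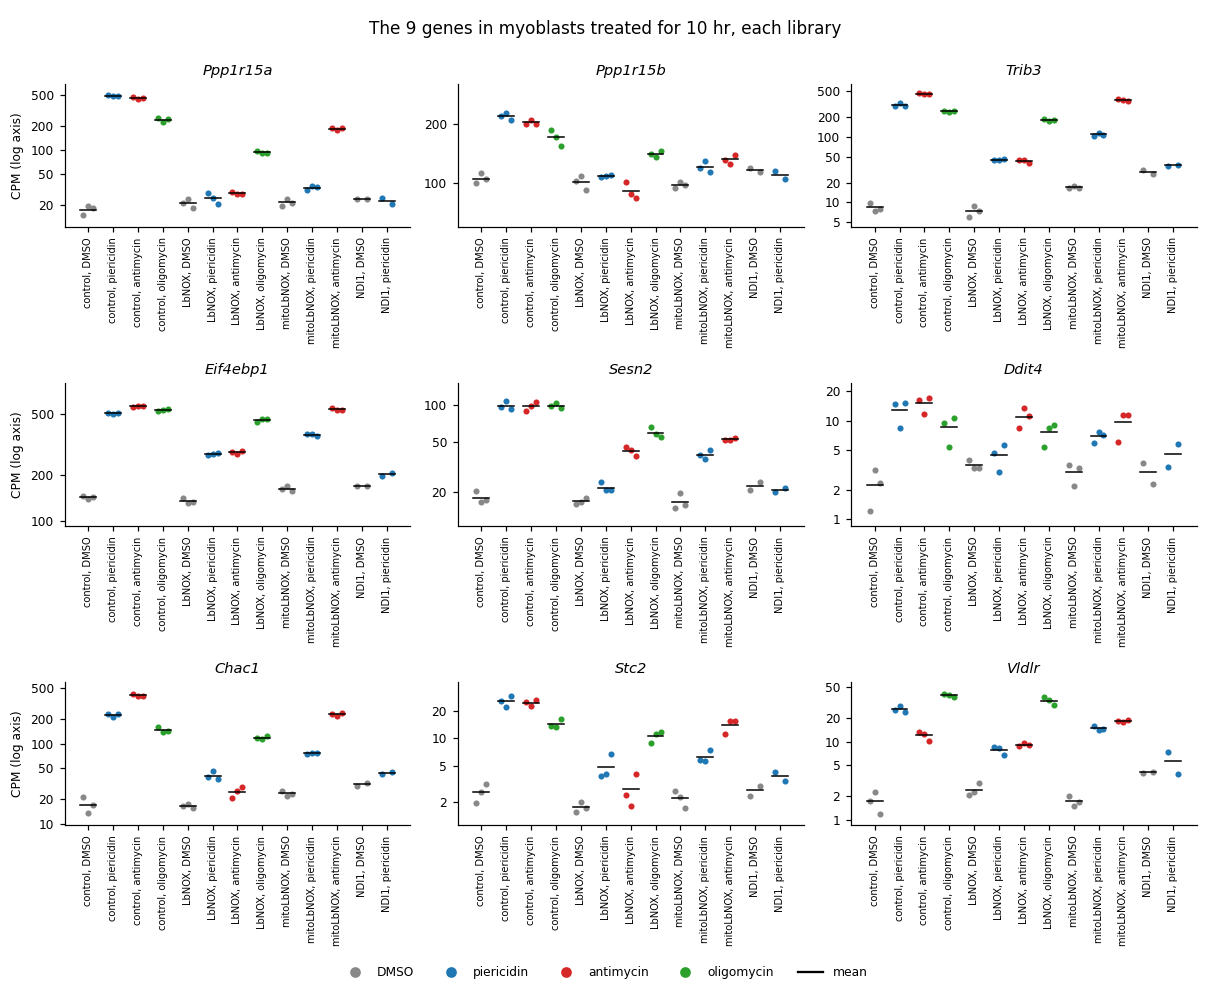
Each panel plots one gene in myoblasts treated for 10 hr, with CPM on a log axis and the groups (expressed protein and treatment) along the horizontal axis; points are libraries, coloured by treatment, and lines are group means. In control cells every treated library lies above every DMSO library for each gene, and the piericidin points of LbNOX, mitoLbNOX and NDI1 cells lie below those of control cells.

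The inhibitors were next compared with each other in control myoblasts. Antimycin exceeded oligomycin for 7 of the 9 genes, against 26.1% of all genes called higher, and Vldlr alone was lower, against 23.9% of all genes. The differences were 1.47 ± 0.096 for Chac1, 0.95 ± 0.083 for Ppp1r15a and 0.93 ± 0.072 for Trib3. Vldlr differed by -1.66 ± 0.14 (edgeR adjusted p = 5.7e-11), so the receptor was higher in all 3 oligomycin libraries than in any antimycin library. Sesn2 was the gene not called, at 0.019 ± 0.089 with a 95% interval of -0.16 to 0.19. The calls of Eif4ebp1 (0.12) and Ddit4 (0.84) were lost under some alternatives, Ddit4's on leaving out antimycin library 1 or 3 or oligomycin library 2. Piericidin exceeded oligomycin for 5 genes (20% of all genes were called higher) and was below it for Vldlr (19.2% lower), with Ppp1r15a at 1.03 ± 0.083 and Stc2 at 0.88 ± 0.20. Antimycin exceeded piericidin for Chac1 (0.84 ± 0.094), Trib3 (0.57 ± 0.071) and Eif4ebp1 (0.16 ± 0.033), against 19.3% of all genes, and was lower for Vldlr (-1.10 ± 0.15), against 17.9%. Both phosphatase subunits were uncalled between antimycin and piericidin, with intervals of -0.25 to 0.077 for Ppp1r15a and -0.22 to 0.030 for Ppp1r15b.

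Lists of partners and relatives of these genes were counted in the same comparisons. Of the eIF2 kinases, eIF2 and eIF2B subunits and PP1 catalytic subunits, piericidin in control myoblasts gave 8 higher and 4 lower of 15 tested, antimycin 6 higher and 5 lower of 15 and oligomycin 4 higher and 4 lower of 15. Medians of this list were 0.39, 0.030 and 0.032. Its largest called changes under piericidin were Eif2ak2 (-1.79 ± 0.21), the kinase PKR, and the eIF2B subunit gene Eif2b3 (1.70 ± 0.064). The other members of the same gene families fell on balance: under piericidin 0 higher and 6 lower of 8 tested, under antimycin 1 higher and 6 lower of 8 and under oligomycin 0 higher and 6 lower of 8, among them Ddit4l (-1.65 ± 0.34 under piericidin), the paralog of Ddit4. Thus Ddit4 rose while Ddit4l fell in the same libraries. Of the AKT and mTOR pathway genes, 8 higher and 7 lower of 28 were called under piericidin, 10 higher and 7 lower of 28 under antimycin and 4 higher and 6 lower of 28 under oligomycin, with Deptor (-1.65 ± 0.10), a partner that inhibits mTOR, and Rheb (1.59 ± 0.078), the activator of mTORC1, largest under piericidin. Glutathione genes gave 5 higher and 4 lower of 14, 5 higher and 4 lower of 14 and 6 higher and 3 lower of 14, with Cth (4.50 ± 0.10) and the cystine transporter gene Slc7a11 (2.94 ± 0.19) largest under piericidin. ATF4 and its other targets gave 29 higher and 0 lower of 29, 27 higher and 0 lower of 29 and 28 higher and 0 lower of 29, with Atf4 itself at 2.39 ± 0.033, 2.78 ± 0.034 and 1.66 ± 0.032. Fgf21 (8.30 ± 0.47) and Atf3 (7.33 ± 0.21) led that list under piericidin. The shares of all genes called, beside which these counts stand, are those given above for higher and 30.8%, 31.1% and 26.3% of all genes for lower. The lists were chosen with earlier results of these data known, so their counts are a description and not independent evidence.

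The enzyme-expressing myoblasts ask whether the response to piericidin depends on NADH oxidation in the cytosol or the mitochondria, or on complex I itself. The piericidin effect was smaller than in control cells for all 9 genes with LbNOX, mitoLbNOX and NDI1 alike, and each of these differences was called in the interaction test. The genes with a lower effect made up 22%, 21.4% and 21.5% of all genes tested. In LbNOX cells 6 genes still rose under piericidin, against 5.01% of all genes, and in mitoLbNOX cells all 9, against 6.37%. In NDI1 cells Eif4ebp1 alone rose, and it was the only gene called among all 11981 tested (0.00835%). The 3 interaction tests share the control libraries.

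The share of the piericidin effect that was left ranged widely from gene to gene. Ppp1r15a kept the least in LbNOX cells: 28.4, 24.6 and 20.5 CPM under piericidin against 21.3, 23.5 and 18.1 under their own DMSO. The groups overlapped, and the log2 fold change of 0.24 ± 0.099 was 4.92% of that in control cells (interaction -4.62 ± 0.14, edgeR adjusted p = 9.8e-22). Without LbNOX piericidin library 3 the LbNOX fold change was 0.36 and called (edgeR adjusted p = 0.0231). Ppp1r15b, Ddit4 and Sesn2 kept 11.8%, 15.4% and 16.1% of their log2 fold change. Of these only Sesn2 was called, at 0.40 ± 0.10, and its call was lost when the fit held only these 2 groups or without LbNOX DMSO library 1 or LbNOX piericidin library 1. At the other end stood the AKT and 4E-BP brakes. Trib3 kept 49.9% of its log2 fold change, with 43.9, 44.6 and 46.1 CPM under piericidin and 5.89, 8.73 and 7.37 under DMSO, and Eif4ebp1 kept 56.5%, with 272, 273 and 276 against 141, 131 and 133. Neither pair of groups overlapped. Chac1, Stc2 and Vldlr lay between, at 34.2%, 44.3% and 44.2%. The differences between genes in this share were not tested.

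In mitoLbNOX cells Ppp1r15a again kept the least of its effect, and Vldlr kept the most. Ppp1r15a went from 19.2, 23.8 and 21.2 CPM under DMSO to 30.8, 34.3 and 33.8 under piericidin, a log2 fold change of 0.64 ± 0.095 or 13.3% of the control effect. Vldlr, by contrast, went from 2.02, 1.51 and 1.72 to 15.7, 14.1 and 14.7 CPM, which was 3.09 ± 0.18 or 79.3% of the control effect. Its interaction of -0.81 ± 0.27 was not called without the filter on low counts or without control DMSO library 3 or mitoLbNOX DMSO library 1. Ddit4's (-1.29 ± 0.49) was lost on leaving out any of 7 libraries, which are control DMSO 1 and 3, control piericidin 1 and 3, mitoLbNOX DMSO 1 and 3 and mitoLbNOX piericidin 1. The mitoLbNOX call of Ddit4 itself (1.22 ± 0.34) was lost with plate position and without DMSO or piericidin library 2. The remaining genes kept 29.4% (Ppp1r15b) to 63.8% (Eif4ebp1) of their log2 fold change. In NDI1 cells, with 2 libraries a group, Ppp1r15a was at 24.5 and 20.8 CPM under piericidin and 23.9 and 23.6 under DMSO, and Trib3 at 35.5 and 37.6 and 31.0 and 26.9. Eif4ebp1 rose by 0.29 ± 0.041 (edgeR adjusted p = 8.2e-04), from 169 and 169 to 198 and 207 CPM. Its call was lost when the fit held only these groups and without library 2 of either, while DESeq2 called 2 genes and the unfiltered fit 3. The NDI1 interaction of Ddit4 (-1.89 ± 0.55) was lost without NDI1 library 1 of either group.

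**Figure D2:**
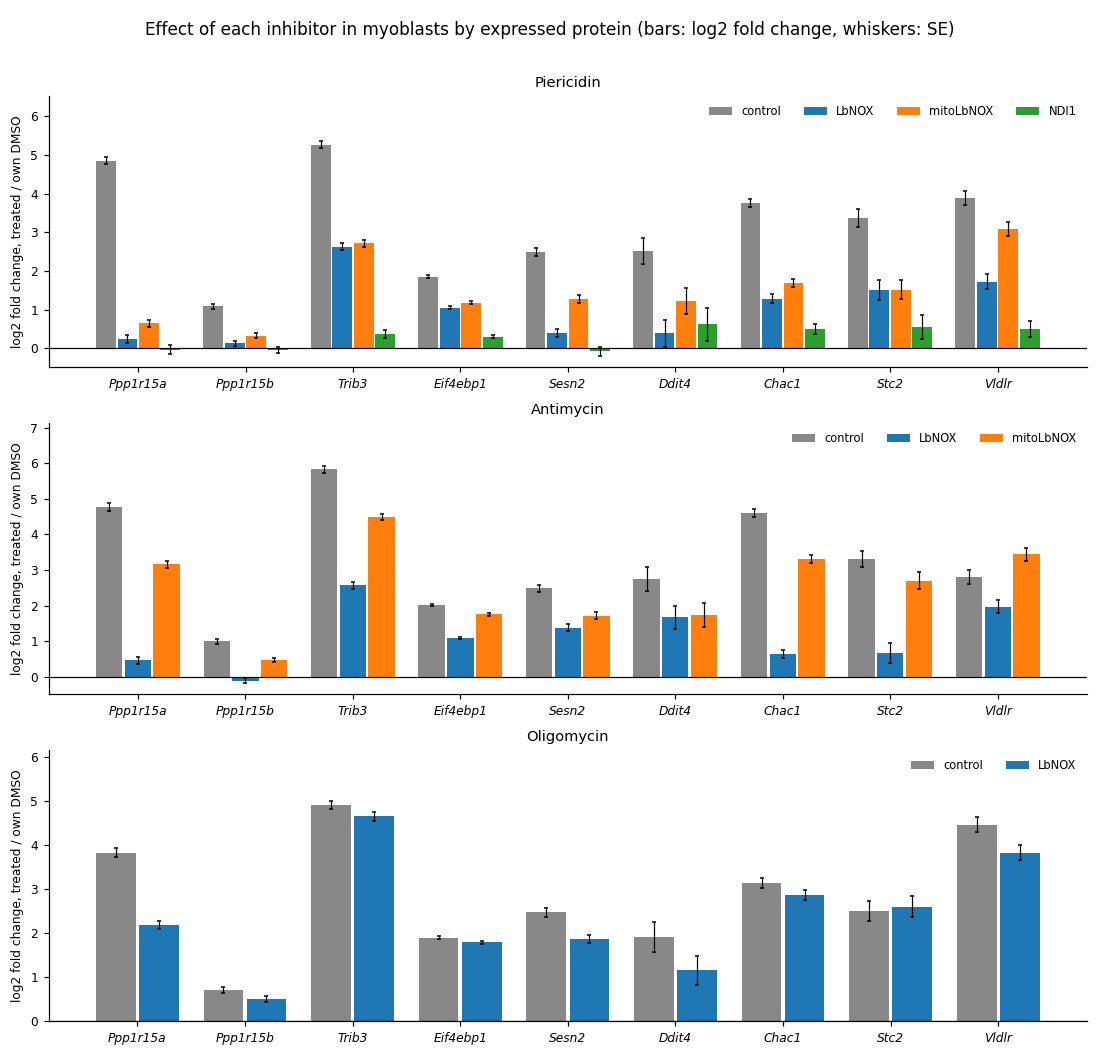
Bars give the log2 fold change of each gene against DMSO of the same cells and whiskers its SE, with 1 panel per inhibitor and 1 colour per expressed protein. Under piericidin the LbNOX bar of Ppp1r15a is at 0.24 against 4.86 in control cells while that of Trib3 is at 2.62 against 5.26; under oligomycin the called differences are in Ppp1r15a (2.18 against 3.82) and Sesn2 (1.86 against 2.47).

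Antimycin was tested in LbNOX and mitoLbNOX cells, which separates the cytosolic from the mitochondrial enzyme for a block at complex III. With LbNOX, 7 genes still rose against 23.3% of all genes, and the effect was smaller than in control cells for 8 genes against 26.8% of all genes. The remaining gene, Ddit4 (-1.09 ± 0.48), was called lower with the replicate block (edgeR adjusted p = 0.0484), by DESeq2, without the filter, in a fit of the 4 groups alone and without library 2 of LbNOX antimycin, control antimycin or control DMSO (-1.46 without the last). With mitoLbNOX all 9 rose (24.8% of all genes) and the effect was smaller for 6 (16.3%). Ddit4 (-1.02) was not among these 6, but was called lower without the filter and without control DMSO library 2 (-1.39). Ppp1r15a stood at 29.3, 27.6 and 27.8 CPM under antimycin in LbNOX cells and at 191, 179 and 188 in mitoLbNOX cells, so these groups did not overlap. Its log2 fold changes were 0.46 ± 0.098 and 3.16 ± 0.095, or 9.65% and 66.3% of the control effect. Chac1 behaved alike in direction, with 21.0, 25.3 and 28.6 CPM in LbNOX and 236, 219 and 239 in mitoLbNOX cells and log2 fold changes of 0.62 ± 0.11 and 3.32 ± 0.11. Ppp1r15b was at 101, 88.1 and 83.9 CPM with LbNOX, not called against its DMSO (-0.11 ± 0.066), and Stc2 was not called either (0.68 ± 0.28). Ppp1r15b was called lower, at -0.19, without LbNOX antimycin library 1 or DMSO library 3. Stc2 was called higher with the replicate block (0.65, edgeR adjusted p = 0.0289) and without LbNOX antimycin library 1 or 2. Among the mTORC1 and translation brakes, with LbNOX, Sesn2 rose by 1.38 ± 0.098, Ddit4 by 1.67 ± 0.33 and Eif4ebp1 by 1.09 ± 0.034. Vldlr rose by 1.97 ± 0.18 with LbNOX and by 3.45 ± 0.18 with mitoLbNOX, the second exceeding the control effect of 2.80 without a call (interaction 0.65 ± 0.28, edgeR adjusted p = 0.0760). Without control DMSO library 3 that interaction was 0.85 and called (edgeR adjusted p = 0.0217). Its LbNOX interaction (-0.83 ± 0.27) was not called in a fit of the 4 groups alone or without LbNOX DMSO library 3 or control DMSO library 3. In LbNOX cells Atf4 mRNA fell under antimycin (-0.51 ± 0.032) while Trib3 rose by 2.57 ± 0.092.

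Under oligomycin fewer differences with LbNOX were called. All 9 genes rose in LbNOX cells, against 17.5% of all genes, and the effect was smaller than in control cells for Ppp1r15a (-1.64 ± 0.13, edgeR adjusted p = 4.1e-10) and Sesn2 (-0.61 ± 0.14, adjusted p = 0.00379), against 4.18% of all genes. Ppp1r15a reached 97.8, 91.3 and 92.7 CPM in LbNOX cells, 57.1% of the control log2 fold change. Trib3 reached 187, 175 and 184 and kept 94.6%. The 7 genes not called had unadjusted 95% intervals of the difference that reached from -1.71 (Ddit4) to 0.77 (Stc2) on the log2 scale. Trib3 was called without LbNOX DMSO library 1 (-0.40) and Chac1 without control DMSO library 1 (-0.45).

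Without inhibitor, the enzymes themselves were compared with luciferase under DMSO. With LbNOX 0 of the 9 genes were called by edgeR, with 2.68% of all genes called in either direction. Of the 9, 2 had an unadjusted p below 0.05, the lowest adjusted p was 0.179 and DESeq2 called none. With mitoLbNOX 3 genes were higher, against 0.985% of all genes: Trib3 (1.03 ± 0.096), Chac1 (0.48 ± 0.11) and Eif4ebp1 (0.19 ± 0.034). With NDI1 5 genes were higher, against 2.74%: Trib3 (1.79 ± 0.099), Vldlr (1.18 ± 0.22), Chac1 (0.84 ± 0.12), Ppp1r15a (0.44 ± 0.11) and Eif4ebp1 (0.23 ± 0.037). Trib3 stood at 9.84, 7.42 and 7.79 CPM with luciferase, 16.6, 18.0 and 16.4 with mitoLbNOX and 31.0 and 26.9 with NDI1, without overlap. In a fit of only the 2 groups, 1 gene, Trib3, was called for each enzyme. The NDI1 call of Ppp1r15a was also lost without either NDI1 library or control library 1, and the mitoLbNOX call of Chac1 without control library 2 or 3 or mitoLbNOX library 1.

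Chloramphenicol for 48 hr gave 7 genes higher in control myoblasts, against 4.83% of all genes, and 4 in LbNOX cells, against 0.675%, with 2 libraries a group. Vldlr and Trib3 moved most. Vldlr counts were 8 and 12 under DMSO and 165 and 154 under chloramphenicol in control cells, and 6 and 13 and 89 and 80 in LbNOX cells. These are log2 fold changes of 4.48 ± 0.33 and 3.13 ± 0.34. The LbNOX value moved to 3.85 without DMSO library 2. Trib3 went from 7.04 and 7.13 to 138 and 110.4 CPM in control cells (4.18 ± 0.14) and from 8.97 and 7.64 to 42.4 and 42.2 in LbNOX cells (2.37 ± 0.14). Among the phosphatase subunits, Ppp1r15a rose by 1.19 ± 0.11 in control cells, from 19.9 and 19.9 to 43.7 and 43.8 CPM, and was at 0.039 ± 0.11 in LbNOX cells. Ppp1r15b was not called in either (0.18 ± 0.085 and 0.030 ± 0.085). The effect was smaller with LbNOX for 4 genes, against 0.453% of all genes: Trib3 (-1.81 ± 0.20), Chac1 (-1.32 ± 0.14), Ppp1r15a (-1.15 ± 0.15) and Eif4ebp1 (-0.68 ± 0.078). Sesn2 was at -1.23 ± 0.34 without a call, although DESeq2 (adjusted p = 0.0164) and the unfiltered fit called it. All 4 calls were lost without LbNOX chloramphenicol library 1 or 2, 3 were lost without control chloramphenicol library 1 (Trib3 stayed called) and 2 without LbNOX DMSO library 2, and that of Ppp1r15a on leaving out any library but LbNOX DMSO 1 and with the replicate block (edgeR adjusted p = 0.0569). The Chac1 call in LbNOX cells (0.81 ± 0.098) was lost without chloramphenicol library 1 or 2 or DMSO library 2. The call of Stc2 in control cells (1.84 ± 0.41) was lost without control chloramphenicol library 1 or control DMSO library 2, in a fit of the 2 groups alone and with plate position in the model.

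In myotubes the count of called genes rose from piericidin through antimycin to oligomycin. Piericidin raised 2 of the 9 genes, against 4.15% of all genes, antimycin raised 6 and lowered 1, against 6.64% and 6.27%, and oligomycin raised 8, against 16.9%. The 5 comparisons with DMSO share its 3 libraries. Ppp1r15a stood at 29.6, 26.7 and 26.6 CPM under DMSO, 28.8, 30.1 and 24.6 under piericidin, 32.5, 33.1 and 38.2 under antimycin and 264, 256 and 255 under oligomycin. Only the oligomycin group lay far above, at a log2 fold change of 3.23 ± 0.074 (edgeR adjusted p = 1.7e-20) against 0.33 ± 0.075 for antimycin (adjusted p = 0.00364) and 0.0095 ± 0.078 for piericidin. Ppp1r15b rose under oligomycin only, by 0.40 ± 0.074. Trib3 responded to all 3, with 9.26, 10.9 and 12.6 CPM under DMSO, 23.3, 22.9 and 20.3 under piericidin, 45.0, 46.1 and 38.4 under antimycin and 278, 278 and 275 under oligomycin. No 2 of these groups overlapped, and the log2 fold changes were 1.01 ± 0.10, 1.99 ± 0.093 and 4.66 ± 0.093. Eif4ebp1 rose by 0.33 ± 0.047, 0.52 ± 0.046 and 1.30 ± 0.046. Sesn2 and Chac1 rose under antimycin (0.86 ± 0.12 and 0.88 ± 0.095) and oligomycin (2.34 ± 0.11 and 2.21 ± 0.094), Vldlr likewise (0.65 ± 0.076 and 1.45 ± 0.075), and Stc2 under oligomycin (1.91 ± 0.24).

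Ddit4 was the exception. In myotubes its levels were 5.66, 5.70 and 6.34 CPM under DMSO, 2.57, 3.56 and 4.58 under piericidin, 2.69, 3.11 and 3.29 under antimycin and 3.63, 4.33 and 4.87 under oligomycin, so in these untransduced myotubes every library of the 3 inhibitors lay below every DMSO library. Only the antimycin difference passed the test, at -0.96 ± 0.25 (edgeR adjusted p = 0.0106), and it was lost without antimycin library 1. Piericidin gave -0.68 ± 0.25 (adjusted p = 0.0994) and oligomycin -0.46 ± 0.24 (adjusted p = 0.155). BAM15 and hypoxia raised it: the levels were 13.5, 8.73 and 13.1 and 10.7, 14.3 and 9.21 CPM, at 1.00 ± 0.23 and 0.95 ± 0.23.

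The uncoupler BAM15 raised 8 of the 9 genes in myotubes, against 13.2% of all genes, and hypoxia raised 8, against 12.3%. Vldlr stood at 19.4, 17.8 and 17.6 CPM under DMSO, 83.5, 88.1 and 86.2 under BAM15 and 75.7, 68.4 and 77.1 in hypoxia, against 46.9, 47.8 and 55.0 under oligomycin. Its log2 fold changes were 2.24 ± 0.074 and 2.01 ± 0.074. Stc2 rose in hypoxia (1.83 ± 0.24, with 45, 56 and 46 counts against 13, 13 and 15) but was not called under BAM15 (0.67 ± 0.25), except with plate position in the model. Thus the 3 largest hypoxia changes were in Vldlr, Stc2 and Ddit4. ACGTG, held by 19.6% of all windows, was in the promoter window of Ddit4 and not in those of Vldlr and Stc2. It was also in that of Ppp1r15a, which rose by 0.45 in hypoxia, and a link to the response was not tested. The phosphatase subunit Ppp1r15a rose by 1.01 ± 0.074 and 0.45 ± 0.075, and Trib3 by 2.53 ± 0.092 and 0.81 ± 0.100. The BAM15 call of Ppp1r15b (0.21 ± 0.074) was lost under DESeq2's size factors and Wald test, without the filter, in a fit of the 2 groups alone, with plate position and without BAM15 library 2 or 3 or DMSO library 1 or 3. The hypoxia call of Sesn2 (0.40 ± 0.12) was lost without the filter, in a fit of the 2 groups alone and without DMSO library 3 or hypoxia library 2 or 3.

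Piericidin, BAM15 or hypoxia was added to oligomycin in myotubes. This asks whether the oligomycin effect persists with the respiratory chain blocked, with uncoupling or in 5% oxygen. Each addition left most of the genes below oligomycin alone. Piericidin lowered 8 genes (12.4% of all genes), BAM15 lowered 6 (14.1%) and raised 2 (12%), and hypoxia lowered 6 (16.5%) and raised 1 (16.7%). The 3 comparisons share the oligomycin libraries. Ppp1r15a fell most: from 264, 256 and 255 CPM under oligomycin alone to 48.4, 47.5 and 44.9 with piericidin, 62.2, 62.8 and 59.5 with BAM15 and 39.6, 44.3 and 43.0 in hypoxia. The log2 differences were -2.47 ± 0.070, -2.08 ± 0.069 and -2.60 ± 0.072. Trib3 followed with -2.13 ± 0.078, -1.63 ± 0.076 and -2.43 ± 0.080. Vldlr and Ddit4 were the 2 genes that BAM15 raised above oligomycin alone, by 0.92 ± 0.068 and 1.46 ± 0.23, and Ddit4 the one that hypoxia raised (0.84 ± 0.24, a call lost without hypoxia-oligomycin library 2 or oligomycin library 1). The piericidin call of Ppp1r15b (-0.23 ± 0.073) was lost without the filter, with plate position and without any of 3 libraries, which are oligomycin 3 and oligomycin with piericidin 1 and 2. With BAM15 the calls of Eif4ebp1 (-0.17) and Stc2 (-1.01) were lost without the filter. Ppp1r15b (-0.19), not called with BAM15, was called with DESeq2's size factors and without oligomycin with BAM15 library 2 (-0.26).

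The same groups were also read the other way, as what oligomycin added to each background. On top of piericidin it raised 6 genes, against 0.672% of all genes: Trib3 (1.52 ± 0.087), Chac1 (1.21 ± 0.095), Sesn2 (1.08 ± 0.12), Ppp1r15a (0.75 ± 0.075), Vldlr (0.67 ± 0.076) and Eif4ebp1 (0.28 ± 0.046). On top of BAM15 it raised 3, against 0.584%: Trib3 (0.50 ± 0.078), Sesn2 (0.46 ± 0.11) and Eif4ebp1 (0.20 ± 0.045). In a fit of the 2 groups alone Trib3 was the single one still called, and 1 to 3 were called on leaving out 1 library. In hypoxia it raised Trib3 (1.42 ± 0.088), Chac1 (0.58 ± 0.094) and Sesn2 (0.48 ± 0.12), against 2.04% of all genes, and lowered Vldlr (-0.51 ± 0.068), against 2.22%. Trib3 and Sesn2 were thus the 2 genes called higher on each of the 3 backgrounds, beside 4.66 and 2.34 for oligomycin without them. The Sesn2 call in hypoxia was lost without hypoxia DMSO library 1 or hypoxia oligomycin library 2 and in a fit of the 2 groups alone. Vldlr stood at 75.7, 68.4 and 77.1 CPM in hypoxia and 49.2, 54.6 and 49.9 in hypoxia with oligomycin, without overlap.

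**Figure D3:**
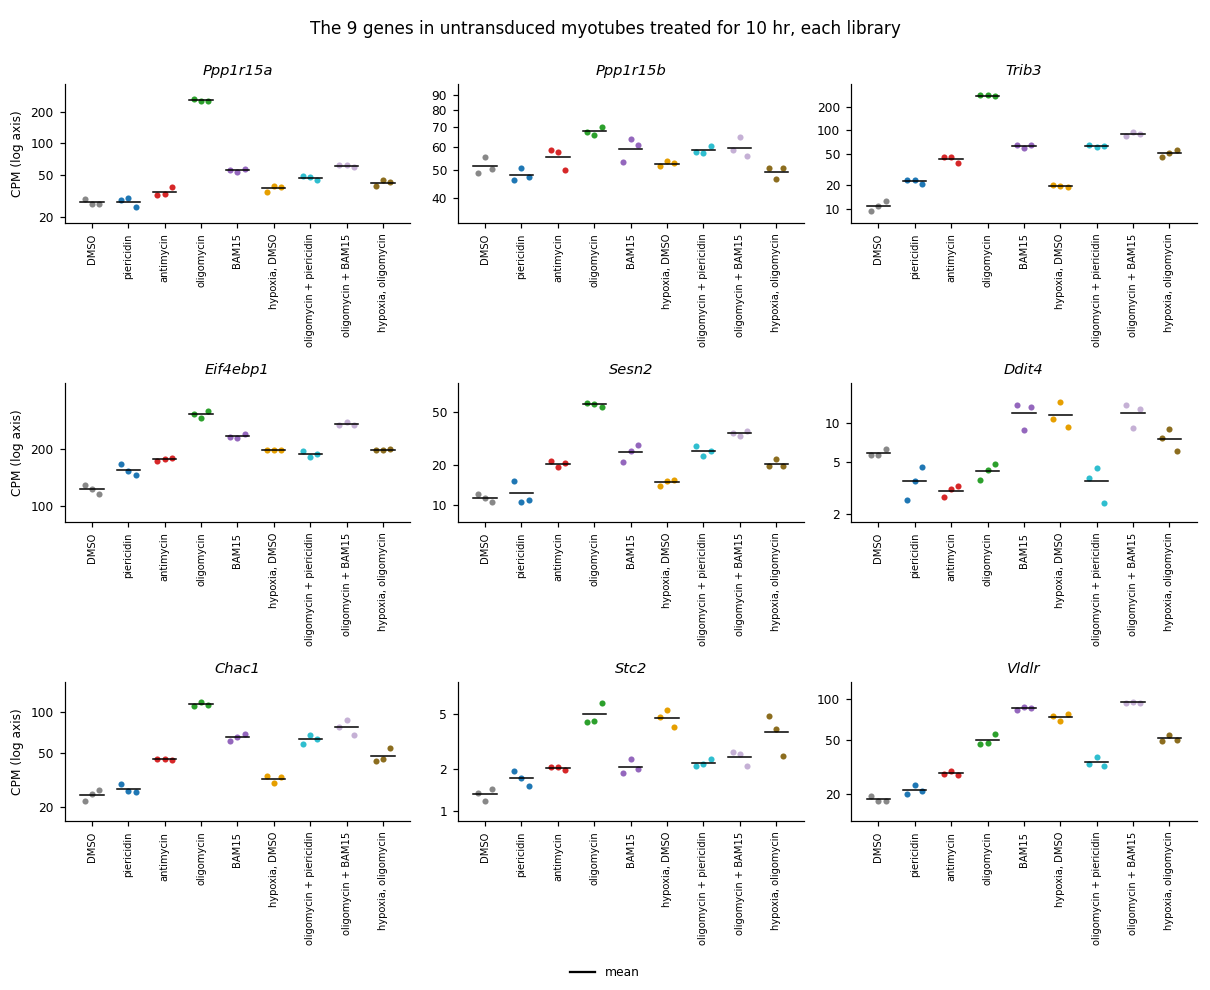
Each panel plots one gene in untransduced myotubes, with CPM on a log axis and treatments along the horizontal axis; points are the 3 libraries of a group and lines the group means. The oligomycin points stand alone at the top for Ppp1r15a and Trib3 and drop with piericidin, BAM15 or hypoxia, whereas the highest points of Ddit4 are under hypoxia, BAM15 and oligomycin with BAM15, and those of Vldlr under oligomycin with BAM15.

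In myotubes carrying adenoviral GFP or LbNOX, too, more genes were called under oligomycin than under piericidin. In GFP myotubes piericidin raised 3 genes, against 1.37% of all genes, and oligomycin 8, against 13.8%. In LbNOX myotubes piericidin raised 5 (3.24%) and lowered Ddit4 (3.54%), and oligomycin raised 8 (16.6%). Ppp1r15a reached 297 and 286 CPM under oligomycin in GFP cells, from 24.0 and 24.2, and 286, 252 and 281 in LbNOX cells, from 23.1, 23.3 and 30.4. Its log2 fold changes were 3.58 ± 0.14 and 3.41 ± 0.11. Trib3 rose by 5.01 ± 0.16 and 5.13 ± 0.14 under oligomycin and by 1.36 ± 0.17 and 1.54 ± 0.14 under piericidin. Ddit4 fell under piericidin with LbNOX (-1.31 ± 0.26, edgeR adjusted p = 0.00734), from 5.75, 5.63 and 7.97 to 1.86, 2.55 and 3.42 CPM, and was at -1.01 ± 0.32 with GFP. Under oligomycin Ddit4 was at 7.68 and 8.83 CPM with GFP, above 4.60 and 6.99 under DMSO, and at 7.98, 8.81 and 7.66 against 5.75, 5.63 and 7.97 with LbNOX, neither called (0.50 ± 0.29 and 0.33 ± 0.24). The 3 piericidin calls in GFP cells (Trib3, Chac1 and Eif4ebp1) were all lost in a fit of the 2 groups alone, and 1 was left without GFP DMSO library 1. In LbNOX cells Ppp1r15b (0.25 ± 0.071) was lost on leaving out any 1 of the 6 libraries, by DESeq2, without the filter and with plate position. Eif4ebp1 (0.20 ± 0.056) was lost on leaving out any library but piericidin 2 and with the replicate block (edgeR adjusted p = 0.0681).

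Whether LbNOX altered these genes in myotubes was tested next. By edgeR, 0 of 9 differed in the piericidin effect (0% of all genes), 0 in the oligomycin effect (0%) and 0 under DMSO (0.0242%). Unadjusted p-values below 0.05 numbered 0, 2 and 0, the lowest adjusted p-values were 0.932, 0.973 and 0.815, and DESeq2 called none of the 9 in any of them. With 2 GFP libraries a group the intervals were wide for Stc2, at -3.04 to -0.46 for oligomycin, and narrower for Ppp1r15a, at -0.50 to 0.15 for oligomycin and -0.21 to 0.49 for piericidin.

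In post-mitotic cells more of the genes were called under oligomycin than under piericidin. Oligomycin raised 7 genes, against 10.6% of all genes. Piericidin raised Vldlr (0.74 ± 0.14), against 1.39%, and lowered Chac1 (-0.42 ± 0.071), against 1.36%. Both piericidin calls were lost in a fit of the 2 groups alone. Without 1 library, 1 to 2 were called, with Chac1 lost without piericidin library 1 and Vldlr without DMSO library 2 or 3 or piericidin library 2 or 3. Trib3 went from 5.37, 6.29 and 5.78 CPM under DMSO to 205, 209 and 209 under oligomycin (5.18 ± 0.094) and was at 8.80, 7.69 and 6.53 under piericidin (0.41 ± 0.11). Ppp1r15a went from 27.5, 33.3 and 29.5 to 159, 161 and 154 CPM (2.42 ± 0.082) and was at 28.0, 29.8 and 33.5 under piericidin. Vldlr reached 62.4, 68.4 and 61.1 CPM from 7.13, 5.20 and 6.63 (3.36 ± 0.13), and Sesn2 and Chac1 rose by 2.75 ± 0.14 and 2.79 ± 0.065. Ppp1r15b was not called under oligomycin (0.31 ± 0.10), but was by DESeq2 (adjusted p = 0.0254), without the filter and without oligomycin library 3 (0.41). Ddit4 stayed uncalled under both (0.58 ± 0.40 and -1.11 ± 0.45). The oligomycin call of Stc2 (0.91 ± 0.27, with 44, 53 and 59 counts against 28, 27 and 44) was lost under DESeq2, without the filter and on leaving out any library but DMSO 3.

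The cell states were then set against each other in 1 fit of 33 libraries. Control myoblasts differ from the other states in transduction, doxycycline and serum as well as in differentiation, which cannot be told apart. Post-mitotic cells and these myotubes were both untransduced, without doxycycline and in 2% serum, and differ in their time in low serum. Under DMSO, myotubes exceeded control myoblasts for 5 genes, against 35.7% of all genes, and were below them for 4, against 33.7%. Vldlr (3.39 ± 0.16), Ddit4 (1.41 ± 0.36), Ppp1r15a (0.71 ± 0.089), Chac1 (0.57 ± 0.099) and Trib3 (0.44 ± 0.11) were higher, the last lost without replicate number 2 or 3 or in a fit of the 2 groups alone. Ppp1r15b (-0.996 ± 0.087), Stc2 (-0.92 ± 0.25), Sesn2 (-0.62 ± 0.13) and Eif4ebp1 (-0.17 ± 0.044) were lower. The 2 phosphatase subunits thus stood in opposite directions. Post-mitotic cells exceeded myoblasts for 3 genes (31.3% of all genes) and were below them for 3 (32.3%), with Vldlr at 1.83 ± 0.17, Ppp1r15a at 0.80 ± 0.088 and Ppp1r15b at -0.64 ± 0.085. The higher call of Chac1 (0.25 ± 0.100) was lost without the filter, in a fit of the 2 groups alone and without replicate number 2 (0.14) or 3, and the lower call of Trib3 (-0.51 ± 0.12) without number 1 (-0.33). From post-mitotic cells to myotubes 4 genes were higher (19.6%) and 3 lower (16%), led by Vldlr (1.56 ± 0.13) and Stc2 (-1.07 ± 0.25). Here Ddit4 (0.90 ± 0.35) was lost without any 1 replicate number and Chac1 (0.32 ± 0.098) without number 2 or 3. With plate position in the model Ddit4 (0.62) was lost as well, and so was the lower call of Ppp1r15b (-0.35, moved to -0.27).

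The piericidin effect was smaller than in control myoblasts for all 9 genes both in myotubes and in post-mitotic cells, against 21.3% and 21.2% of all genes, and the antimycin effect was smaller for all 9 in myotubes, against 22.5%. For oligomycin it was smaller for 5 genes in myotubes (13.2%) and for 5 in post-mitotic cells (10.1%). The median over all genes was shifted by 0.070, 0.061, 0.059, 0.036 and 0.059 in these tests. Ppp1r15a differed by -4.80 ± 0.12 for piericidin in myotubes (edgeR adjusted p = 1.0e-22) and by -0.59 ± 0.11 for oligomycin (adjusted p = 2.6e-04). Trib3 differed by -4.20 ± 0.14 for piericidin, whereas for oligomycin it was not called in myotubes (-0.24 ± 0.13, interval -0.50 to 0.018) or post-mitotic cells (0.31 ± 0.14, interval 0.035 to 0.59). Without replicate number 1 the myotube value of Trib3 was -0.46 and called (edgeR adjusted p = 0.0338). Ppp1r15b was not called in myotubes either (-0.31 ± 0.12), but was with the replicate block (adjusted p = 0.0416), with plate position and by DESeq2, and Ddit4's uncalled value in post-mitotic cells (-1.30 ± 0.50) was called by DESeq2's Wald test (adjusted p = 0.0240), with DESeq2's size factors, without the filter and without replicate number 2 (-2.28). Chac1's in post-mitotic cells (-0.30 ± 0.13) was called by DESeq2 (adjusted p = 0.0209) and without replicate number 1 (-0.45). The oligomycin call of Ppp1r15b in post-mitotic cells (-0.37) was lost in a fit of only the groups compared and without replicate number 3. Sesn2 was not called for oligomycin, at -0.13 ± 0.17 and 0.32 ± 0.16. The 2 genes with the largest oligomycin differences in myotubes were Vldlr (-3.00 ± 0.19) and Ddit4 (-2.37 ± 0.49). For antimycin Ddit4 was called in opposite directions, at 2.75 in myoblasts and -0.96 in myotubes (difference -3.67 ± 0.49). Its piericidin difference in post-mitotic cells (-3.57 ± 0.53) moved to -4.96 without replicate number 2 and -2.82 without number 1, and without number 2 its myotube differences moved to -3.81 for piericidin, -4.26 for antimycin and -3.02 for oligomycin.

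**Figure D4:**
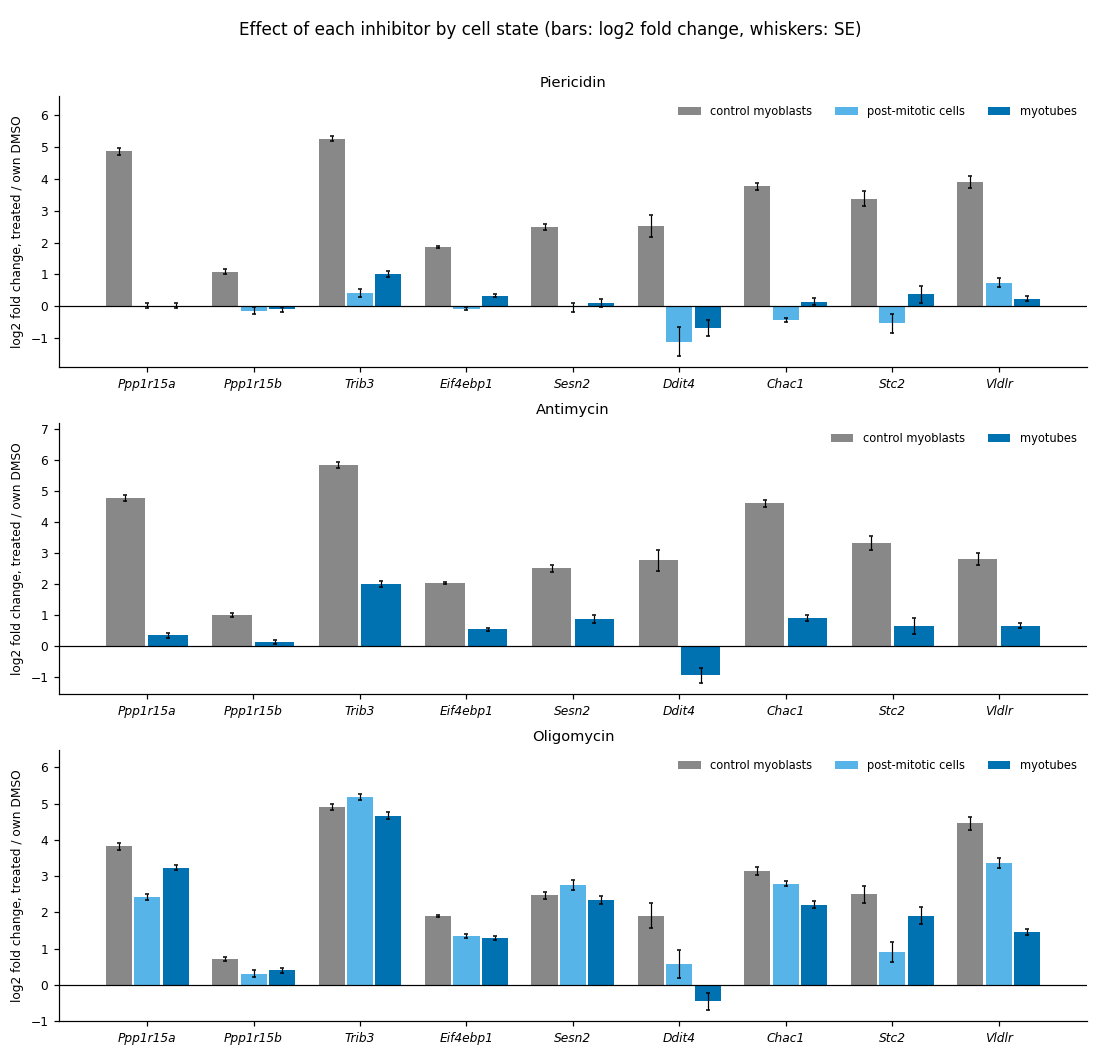
Bars give the log2 fold change of each gene against DMSO in the same cell state and whiskers its SE, with 1 panel per inhibitor. Under piericidin the myoblast bars are the tallest for every gene and the Ddit4 bars of the other states are negative and not called; under oligomycin the myotube bars of Vldlr and Ddit4 are the furthest below the myoblast bars.

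Across the 22 comparisons of a treatment with its own DMSO, several of which share controls and which leave out oligomycin against DMSO within hypoxia (given above), Eif4ebp1 was called higher in 21, Trib3 in 20, Chac1 in 19, Vldlr in 18 and Sesn2 in 17. Ppp1r15a was called higher in 15, Stc2 in 13, Ppp1r15b in 11 and Ddit4 in 9. Lower calls were 2 for Ddit4 and 1 for Chac1. The share of all genes called in a single one of these comparisons ran from 0.00835% to 32.1% for higher and from 0% to 31.1% for lower. How often other genes were called over the 22 was not counted. Over the 35 groups the ratio of the highest to the lowest group mean in CPM was largest for Vldlr, at 129, and Trib3, at 79.2, and smallest for Eif4ebp1, at 4.87, and Ppp1r15b, at 4.72. Ppp1r15a, Ppp1r15b, Sesn2 and Stc2 were highest in control myoblasts under piericidin, and Trib3, Eif4ebp1, Ddit4 and Chac1 in control myoblasts under antimycin. Vldlr was highest in myotubes under oligomycin with BAM15, at 94.3, 95.1 and 94.3 CPM. Over the 9 genes together most neighbours in these orders overlapped: of 34 neighbouring pairs of groups, the libraries did not overlap in 18 for Trib3, 14 for Ppp1r15a, 13 for Eif4ebp1 and 11 for Vldlr. For Chac1 it was 8, for Sesn2 5, for Ppp1r15b 3, for Stc2 1 and for Ddit4 0. The groups were ordered by these same means, and 9 of them held only 2 libraries. The count was not made for other genes, so whether these numbers are unusual cannot be said.

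**Figure D5:**
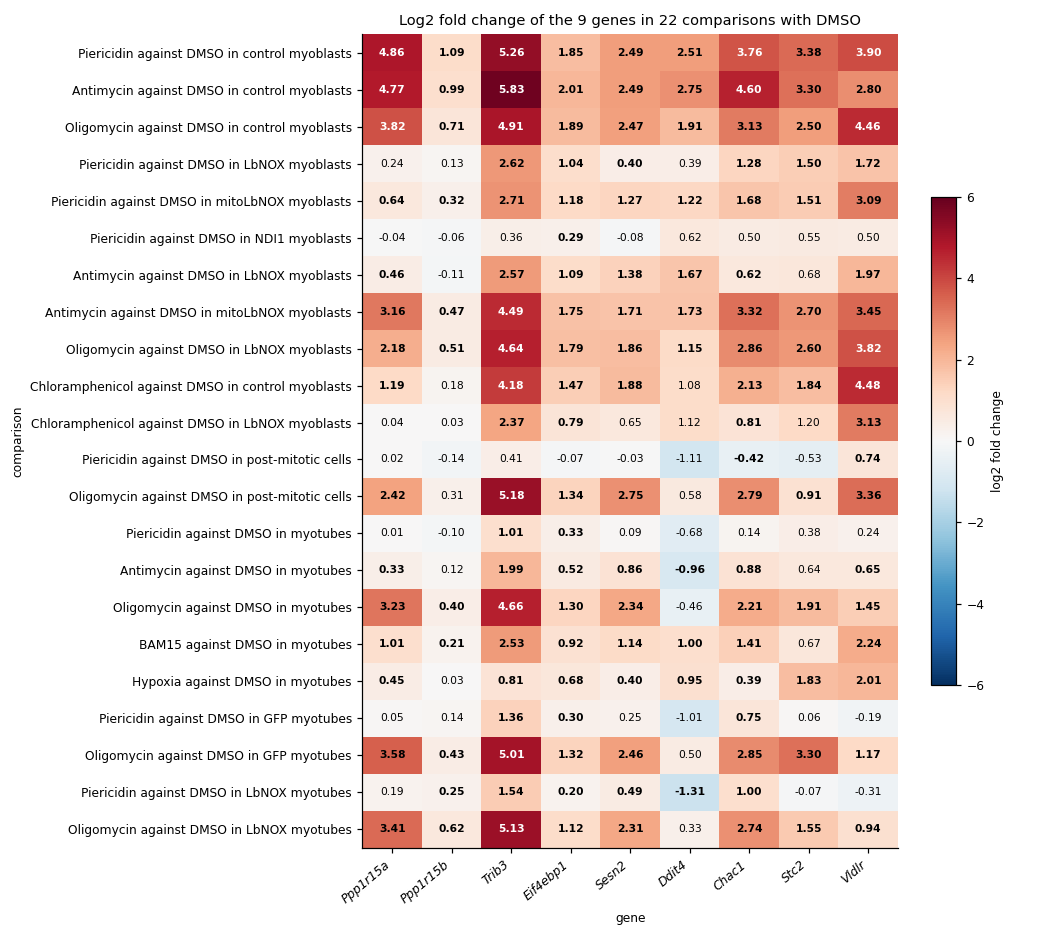
Rows are the 22 comparisons with DMSO and columns the 9 genes; colour and number give the log2 fold change, in bold where edgeR's adjusted p was below 0.05. The Trib3 and Eif4ebp1 columns are bold in all but 2 rows and 1 row, and the bold negative values are -0.96 and -1.31 for Ddit4 and -0.42 for Chac1.

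As a description, the genes whose pattern was most like each member were found by the correlation of mean log2 CPM differences from DMSO over 25 treated conditions, which share DMSO libraries, among 11918 named genes. Pearson's and Spearman's coefficients follow each gene. Closest to Ppp1r15a were Atf3 (0.979 and 0.962), Cln8 (0.973 and 0.948) and Ddit3 (0.973 and 0.977). Closest to Ppp1r15b were Rhbdd1 (0.950 and 0.945), Herpud1 (0.938 and 0.915) and Dync1li1 (0.933 and 0.869). For Trib3 they were Cars (0.965 and 0.965), Sesn2 (0.963 and 0.939) and Slc6a9 (0.961 and 0.937), and for Sesn2 Glce (0.968 and 0.967), Trib3 (0.963 and 0.939) and Cars (0.952 and 0.935). Trib3 and Sesn2 thus named each other by Pearson's coefficient. By Spearman's, Sesn2 and Slc6a9 ranked 13.5 and 15.5 for Trib3, and Herpud1 and Dync1li1 ranked 4 and 28 for Ppp1r15b. For Ddit4, below, Ero1l and Mt2 ranked 5 and 6 by Spearman's. For Eif4ebp1 they were Acot2 (0.966 and 0.975), Arl14ep (0.952 and 0.945) and Adm2 (0.946 and 0.973), and for Chac1 Atf4 (0.967 and 0.969), Nupr1 (0.960 and 0.979) and Slc3a2 (0.959 and 0.945). Ddit4 stood with Ndrg1 (0.904 and 0.880), Ero1l (0.897 and 0.862) and Mt2 (0.878 and 0.847), of which Ndrg1 and Ero1l are known hypoxia-responsive genes. Stc2 stood with Rpp38 (0.916 and 0.911), Nfil3 (0.895 and 0.875) and Adm2 (0.891 and 0.909), and Vldlr with Ostf1 (0.883 and 0.886), Lonp1 (0.855 and 0.849) and Adm2 (0.838 and 0.818). Among the 9 genes the highest Pearson coefficient was 0.963 for Trib3 with Sesn2 and the lowest 0.471 for Vldlr with Ppp1r15b. Ppp1r15a and Ppp1r15b had 0.916 despite their different ranges, and Ddit4 was closest to Eif4ebp1 (0.805) and Vldlr (0.795).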

How the data were processed

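C2C12 RNA was profiled with an unstranded Smart-seq2 protocol. The authors demultiplexed reads with bcl2fastq 2.20.0.422, quantified them with kallisto 0.44 against Ensembl transcripts of GRCm38, summed transcripts to genes and both flow cells, and deposited estimated counts as whole numbers. No column was left unused (0). Paralogs can share reads in such estimates, and reads from antisense genes cannot be told apart.

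Counts were tested with edgeR 4.0.16 (quasi-likelihood, TMM, R 4.3.3) in 6 fits and 52 comparisons, after dropping every gene that lacked a group in which all replicates reached 16 counts, with Benjamini-Hochberg adjustment over all genes of each comparison at 0.05. Intervals are the log2 fold change ± 1.96 SE, not adjusted. CPM were scaled by TMM with no prior count. The named genes were the 9 members, the 2 tested genes with the largest called change in each list, Atf4 itself and the 3 genes most like each member (log2 CPM with a prior count of 2). One gene that this rule names is not reported here. The members and lists were chosen with earlier results of these data known. The code was tested on simulated data. Replicate numbers did not pair the libraries. Alternatives were DESeq2 1.42.0 size factors and Wald test, no filter, fits of only the groups compared, plate position, a replicate block and leaving out libraries, or replicate numbers in the fit across states. Figures were drawn with matplotlib 3.10.9 in Python 3.11.15.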

Additional observations from a re-analysis of the deposited data

Results flagged for a closer look

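Tests of a difference in effect between cell lines or states picked out the following results. The piericidin effect differed from that in control myoblasts for 9 genes with LbNOX (22% of all genes were called lower in this test), 9 with mitoLbNOX (21.4%) and 9 with NDI1 (21.5%), all smaller. The antimycin effect was smaller for 8 genes with LbNOX (26.8%) and 6 with mitoLbNOX (16.3%), the oligomycin effect for 2 with LbNOX (4.18%) and the chloramphenicol effect for 4 with LbNOX (0.453%). In myotubes it was smaller than in control myoblasts for 9 genes under piericidin (21.3%), 9 under antimycin (22.5%) and 5 under oligomycin (13.2%), and in post-mitotic cells for 9 under piericidin (21.2%) and 5 under oligomycin (10.1%).

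In 2 cases a gene was called in opposite directions. Ddit4 rose under antimycin in control myoblasts (2.75) and fell in myotubes (-0.96), a difference of -3.67 ± 0.49. Chac1 rose under piericidin in control myoblasts (3.76) and fell in post-mitotic cells (-0.42), a difference of -4.13 ± 0.14. Each of these falls was lost on leaving out 1 library, antimycin library 1 for Ddit4 and piericidin library 1 for Chac1, and the Chac1 fall also in a fit of only the groups compared.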

How the results depend on the processing

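The 9 genes in 52 comparisons gave 468 log2 fold changes, of which 314 were called, and none of the called values changed sign under any alternative run. The call status stayed as reported for 465 of 468 with DESeq2's size factors, 436 of 447 with DESeq2's Wald test (21 had no adjusted p), 445 of 468 without the filter on low counts, 438 of 463 in fits of only the groups compared and 441 of 450 with plate position as a covariate. Plate position could not be fitted for the 2 comparisons of post-mitotic cells. In fits of only the groups compared, the number of genes called went from 5 to 1 for NDI1 and from 3 to 1 for mitoLbNOX against control under DMSO, from 3 to 1 for oligomycin added to BAM15, from 3 to 0 for piericidin in GFP myotubes, from 2 to 0 for piericidin in post-mitotic cells and from 1 to 0 for piericidin in NDI1 myoblasts. The last was 2 with DESeq2's Wald test and 3 without the filter. Fewer samples in the fit leave fewer residual degrees of freedom; otherwise the cause was not tested. Leaving out 1 library gave 0 to 4 genes for the LbNOX difference under chloramphenicol, 1 to 3 for oligomycin added to BAM15, 1 to 3 for piericidin in GFP myotubes, 0 to 1 in NDI1 myoblasts and 1 to 2 in post-mitotic cells. Replicate numbers did not pair the libraries: the deviations of same-numbered libraries correlated by 0.0249 on average in the myoblast fit, and by -0.0377 to 0.0257 over the 6 fits. With a replicate block 463 of 468 values kept their call status, 2 calls were lost and 3 gained. Low counts limit Ddit4 (9 to 165 counts a library), Stc2 (4 to 279) and Vldlr in myoblasts (from 6).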
